A study of Mus musculus with 2 samples.

Results

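The mitosis genes are 46 genes for the machinery that condenses, aligns and separates chromosomes and then divides the cell. They were named by symbol and sorted into 9 groups by what their proteins do. The list was chosen with earlier results of these data known, in which cell cycle genes were already seen to be lower. Of the 46, 45 had at least 1 probe set that the array annotation pairs with a single gene symbol, and all 45 were measured, out of 11077 measured genes and 18193 genes on the array with such a probe set. Ccnb1, which encodes cyclin B1, was not analysed here.

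The genes were read on 2 Affymetrix mouse arrays, 1 per condition. Both used RNA of RAW264.7 cells, a mouse macrophage-like line that divides continuously in culture, stably transfected to express murine LXRα, a nuclear receptor for oxidised sterols. The cells of the DMSO array were kept for 24 h in the solvent DMSO. The cells of the ligand array were kept for 24 h with GW3965 (1 µM), an agonist of LXR, together with LG268 (100 nM), an agonist of its partner RXR, so neither ligand was measured alone, and both arrays carry the introduced receptor. Whether the line is 1 clone is not stated in the labels. With 1 array per condition there is no replicate and no test, and every statement of higher or lower compares these 2 arrays.

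Entry into mitosis depends on cyclin B bound to CDK1, and exit on the anaphase-promoting complex, a ubiquitin ligase that marks cyclin B and the separase inhibitor securin for destruction. Kinetochores tie chromosomes to the spindle, the spindle checkpoint holds the complex back until all are attached, and kinesin motors, condensin and the cytokinesis proteins carry out the movements. Most of these genes are transcribed late in the cell cycle, so their RNA in a bulk culture rises with the share of cells in G2 and mitosis.

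A signal floor of 276.4, the median over all probe sets other than controls, was set, and a gene counted as measured when its brighter signal exceeded it. All 45 mitosis genes exceeded it on both arrays, and the lowest signal of any was 2675, that of Kif4 on the ligand array. Where a gene had several probe sets, the one with the highest mean signal on the log2 scale stands for it. The only error available is the disagreement between probe sets for the same gene, an SD of 0.28 on the log2 scale per probe set over 4866 genes, or 0.16 over the 1253 genes with 2 probe sets of signals of 5000 or more. It covers measurement within the 2 arrays and not differences between cultures. The ligand response was present, with log2 ratios of 4.76 for the cholesterol exporter Abca1, 1.91 for Abcg1, 4.86 for Apoe, 1.67 for Srebf1 and 0.82 for Nr1h3, which encodes LXRα. Whether the Nr1h3 signal comes from the introduced receptor, the cells' own gene or both was not tested. All 10 macrophage markers examined were measured, 5 with a ratio below 0, with a median log2 ratio of 0.02. They ran from -0.27 for the phosphatase Ptprc (CD45) to 1.02 for Mpeg1 (perforin-2), whose signals were 22120.4 and 45001, and the Fc receptor Fcgr1 was at 0.61. Of markers of other cells, 1 of 9 lymphoid, 4 of 10 granulocyte and 2 of 10 fibroblast genes exceeded the floor on an array, the highest signal being 923 for Prtn3 on the ligand array, and only Pdgfrb exceeded it on both.

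Most of the mitosis genes were slightly lower on the ligand array. Of the 45, 39 had a ratio below 0 on the log2 scale, or 86.7%, where 53.8% of all measured genes did. Their median log2 ratio was -0.22, against -0.03 over all measured genes. The differences were small. Kif23 alone was at least 1.5-fold lower, when 4.77% of all measured genes were, and no member was 2-fold lower, against 0.776%. No member was 1.5-fold higher, against 6.36%. A log2 ratio of -0.32 or lower was found for 11 members, or 24.4%, against 15.5%, and no member reached 0.32 in the other direction, against 15.7%.

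Bright probe sets give tighter ratios, so the members were also set against the 6007 genes whose signals on both arrays were at least the lowest member signal. Among these, 56.1% had a ratio below 0 and the median was -0.03. A log2 ratio of -0.32 or lower was found for 10.2% of them and one of 0.32 or higher for 9.84%, while 1.66% were 1.5-fold lower or more. The middle part of the members, from the 25th to the 75th percentile, ran from -0.31 to -0.09, and that of the 6007 genes from -0.19 to 0.13. Of the 41 members with both signals of 5000 or more, 9 were lower by at least 2 SDs of bright probe sets, 0.32, against 8.62% of the 4223 genes of such signals, and none was that much higher, against 8.69%. The 9 lower ones were Kif23, Anln, Ttk, Smc4, Nuf2, Aurka, Nusap1, Incenp and Aurkb. Incenp and Aurkb passed narrowly, at -0.34 and -0.33, by probe sets named _x_at, which may cross-detect related transcripts. Another probe set with both signals above 5000 was at -0.25 for Incenp and at -0.55 for Aurkb. The wider SD of 0.28, between probe sets of all signals, gives 2 SDs of 0.57. Of the 45 members, 1, Kif23, was that much lower and none was that much higher. Among all measured genes 5.28% were that much lower, and among the 6007 genes 1.86%. In a bulk culture, fewer cells in mitosis and less of each RNA per mitotic cell cannot be told apart, and no measure of cell cycle stage was analysed here.

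**Figure D1:**
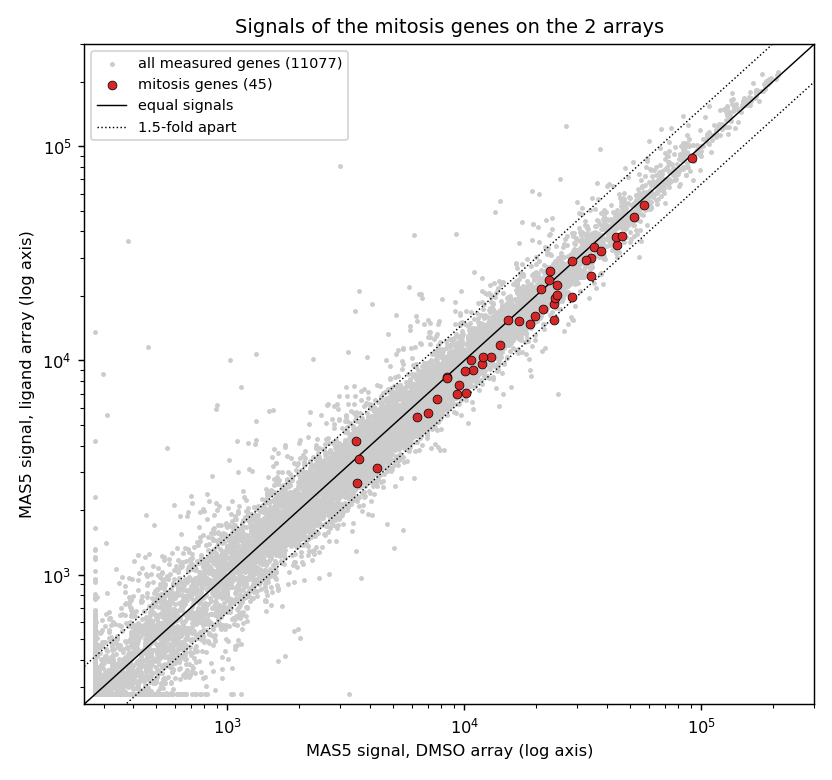
Signals of each measured gene on the DMSO array (horizontal, log axis) and the ligand array (vertical, log axis), signals below the floor of 276.4 drawn at the floor, with the 45 mitosis genes in red. The red points lie mostly just under the line of equal signals, and 1 of them, Kif23, lies beyond the lower dotted line of 1.5-fold.

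The promoters RefSeq gives for the members (build GRCm38.p6) were searched for the short elements known from late cell cycle genes. Whether these elements bear on the ratios was not tested. The cell cycle genes homology region, or CHR, is most often TTTGAA and in some genes TTTAAA, and is bound by the MuvB complex, which acts with the repressive DREAM proteins in resting cells and with B-MYB and FOXM1 in dividing ones. The CCAAT box is bound by the factor NF-Y. Stretches of 150 bases, from 120 bases before the gene start to 30 bases from it onward, are shown for 7 members: the mitotic kinase Cdk1, its partner cyclin Ccnb2, the activator of the anaphase-promoting complex Cdc20, the centromeric histone Cenpa, and the cytokinesis genes Kif23, Racgap1 and Ect2. They include the member of lowest ratio, Kif23, and those of the 2 highest, Ect2 and Cenpa. All 7 hold both TTTGAA and CCAAT, which 27 of the 37 members with a listed promoter do. Capitals mark the CHR letters, its variant and the CCAAT box on either strand, so that their reverse complements are in capitals too.
Cdk1: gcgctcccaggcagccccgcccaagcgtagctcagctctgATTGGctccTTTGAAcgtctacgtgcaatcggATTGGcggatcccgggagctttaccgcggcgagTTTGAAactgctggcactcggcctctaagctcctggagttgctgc
Ccnb2: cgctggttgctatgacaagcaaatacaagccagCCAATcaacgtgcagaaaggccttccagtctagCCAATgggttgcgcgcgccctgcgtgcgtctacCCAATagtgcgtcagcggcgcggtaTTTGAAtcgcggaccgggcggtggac
Cdc20: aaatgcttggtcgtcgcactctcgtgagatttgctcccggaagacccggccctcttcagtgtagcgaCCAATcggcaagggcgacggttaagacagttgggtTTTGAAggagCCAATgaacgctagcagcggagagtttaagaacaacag
Cenpa: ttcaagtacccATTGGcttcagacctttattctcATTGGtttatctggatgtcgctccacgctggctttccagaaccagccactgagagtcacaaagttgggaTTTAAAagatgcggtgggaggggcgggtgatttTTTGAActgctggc
Kif23: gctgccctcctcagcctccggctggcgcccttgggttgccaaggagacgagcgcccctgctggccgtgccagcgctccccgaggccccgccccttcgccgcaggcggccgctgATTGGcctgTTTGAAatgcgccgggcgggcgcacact
Racgap1: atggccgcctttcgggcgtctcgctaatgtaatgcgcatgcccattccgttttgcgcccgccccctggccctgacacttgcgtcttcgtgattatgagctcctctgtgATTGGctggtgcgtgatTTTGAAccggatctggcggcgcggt
Ect2: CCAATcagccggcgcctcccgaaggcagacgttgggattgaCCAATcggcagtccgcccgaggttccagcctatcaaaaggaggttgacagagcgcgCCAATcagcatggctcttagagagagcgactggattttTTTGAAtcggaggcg
These stretches lie at chr10:69352883-69353032 for Cdk1, chr9:70421525-70421674 for Ccnb2, chr4:118437314-118437463 for Cdc20, chr9:61946770-61946919 for Kif23, chr15:99651627-99651776 for Racgap1 and chr3:27153825-27153974 for Ect2, all on the minus strand, and at chr5:30666766-30666915 on the plus strand for Cenpa. The CCAAT boxes of Ccnb2 stand 33 and again 33 bases apart, followed by TTTGAA 4 bases after the start.

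Promoters of 300 bases, of which 250 precede the gene start, were listed for 37 of the 45 measured members. TTTGAA on either strand stood in the promoters of 30 of these genes, or 81.1%, against 20.2% of all 27025 genes of the table. Of the 4999 listed genes with both signals at or above the lowest member signal, 14.3% held it. A whole match within 50 bases of the start was found for 27 members, or 73.0%, against 5.72% of all genes. TTTAAA was found for 21.6% of members and 14.9% of all genes. CCAAT stood in the promoters of 78.4% of members and 41.1% of all genes, and TTTGAA and CCAAT together in 73.0% and 7.97%. In 1 member promoter a TTTGAA match overlapped a CCAAT match. A match is a description of the letters in the window and not evidence of binding in these cells.

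The 30 members with TTTGAA had a median log2 ratio of -0.22, and the 7 without it, Birc5, Bub1, Cenpe, Mad2l1, Nuf2, Nusap1 and Pttg1, a median of -0.28. With CCAAT the median was -0.23 over 29 members, and without it -0.28 over 8. No difference between members with and without an element was tested. The genes of DNA replication held TTTGAA in 16.1% of 31 genes and CCAAT in 67.7%. The other mitosis genes listed here held TTTGAA in 33.7% of 83 genes.

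**Figure D2:**
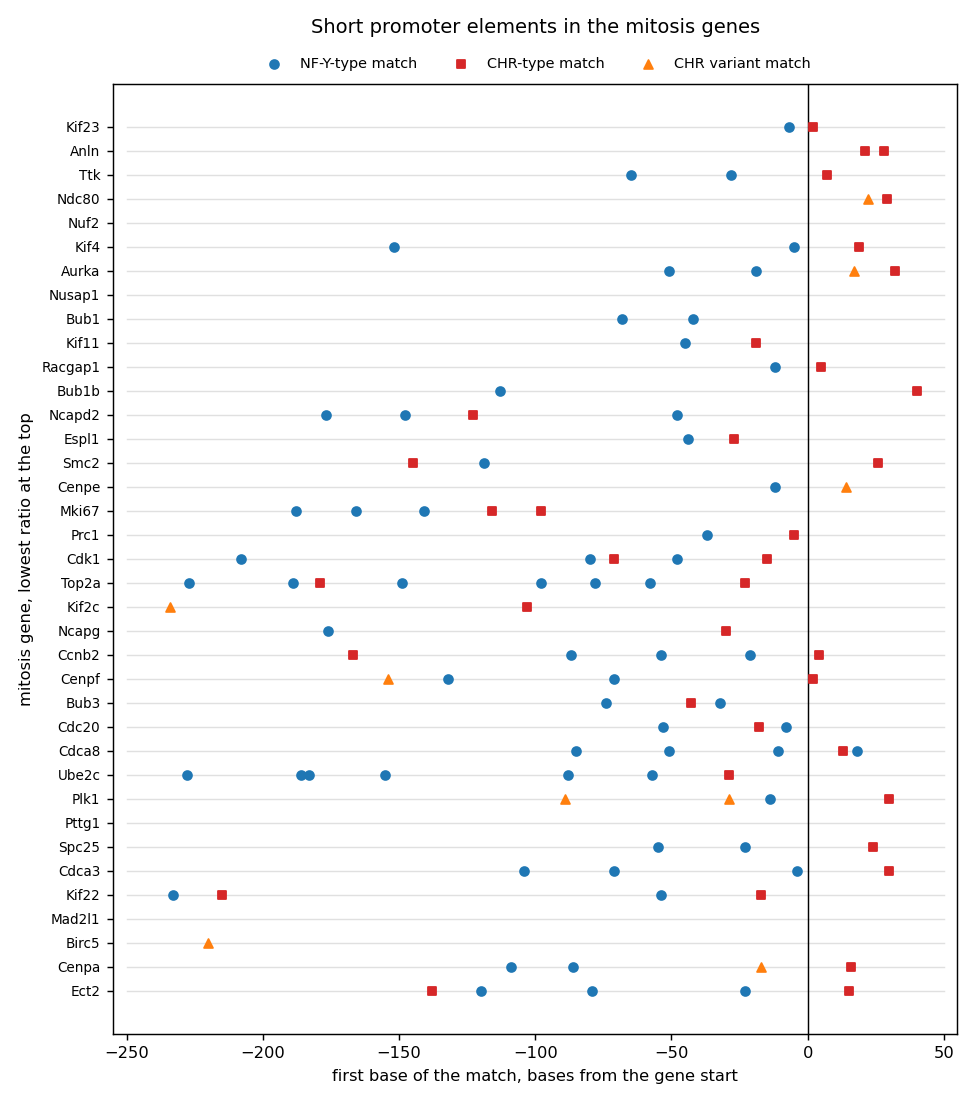
Position of each match (horizontal, bases from the gene start) in the RefSeq promoters of 37 mitosis genes, 1 promoter per gene, ordered by log2 ratio with the lowest at the top; red squares are TTTGAA, orange triangles TTTAAA and blue circles CCAAT, on either strand. Red squares lie within 50 bases of the start for 27 of the genes.

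Over the 5 measured cyclins, CDK1 and its activators the median log2 ratio was -0.06, 4 were below 0 and none was as low as -0.32. The median was -0.16 with the ratios of a gene's probe sets averaged, and -0.19 without probe sets named _s_at or _x_at, so it depends on which probe sets are read. Cdk1, the kinase that drives entry into mitosis, had signals of 37806 with DMSO and 32300 on the ligand array, a log2 ratio of -0.23 and the lowest of the group. Ccnb2, which encodes cyclin B2, had 34123 and 29922, a ratio of -0.19. Ccna2, cyclin A2, which acts in S phase and early mitosis, had probe sets at -0.06 and -0.26, and Cdc25c, the phosphatase that activates CDK1, at -0.05 and -0.20. Cdca3, which takes part in mitotic entry, had the highest value, 0.02 (15238 and 15471). The ratios of Cdk1 and Ccnb2 and the second Ccna2 value exceed the SD of 0.16 between bright probe sets, and none of the values exceeds 2 such SDs.

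Among the mitotic kinases and the chromosomal passenger complex, 5 of 6 members were below 0 and 3 were at -0.32 or lower, with a median of -0.23. Aurka, the Aurora kinase of spindle poles, had a signal of 23811 with DMSO and was 1.30-fold lower with the ligands, at 18294. Aurkb, the Aurora kinase of the passenger complex, had a ratio of -0.33, with its second probe set at -0.55. Incenp, the scaffold that holds Aurora B, had 43899 and 34699, a ratio of -0.34. Its 4 probe sets above the floor ran from -0.72 to 0.10, so they did not share a direction. The remaining passenger proteins differed less, since Cdca8 (borealin) was at -0.14 and Birc5 (survivin), the highest, at 0.06 (22827 and 23812). Plk1, the Polo-like kinase, was at -0.09.

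The spindle checkpoint group had a median of -0.30 over 5 members, with 4 below 0. Ttk, the kinase that starts checkpoint signalling at unattached kinetochores, had signals of 10147 with DMSO and 7023 with the ligands, 1.44-fold lower. A second, weak probe set of Ttk (361 and 435) was at 0.27. The kinase Bub1 had 24192 and 19467, a ratio of -0.31, with its other probe set at -0.43, and its relative Bub1b (BUBR1) had probe sets at -0.30 and -0.40. Bub3, which brings both to kinetochores, had 51847 and 46563, a ratio of -0.16, and all 4 of its probe sets that exceeded the floor throughout were below 0. Mad2l1, the checkpoint protein that captures CDC20, did not share the direction, at 0.04 (28333 and 29063).

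All 4 genes of the anaphase-promoting complex pathway and sister separation were below 0, with a median of -0.13. Espl1, separase, the protease that cuts cohesin at anaphase, had 7009 with DMSO and 5703 with the ligands, a ratio of -0.30. Cdc20 had 32734 and 29401, a ratio of -0.15, while a weaker probe set was at 0.14. Ube2c, the ubiquitin-conjugating enzyme of the complex, was at -0.11. Pttg1, securin, the inhibitor of separase, had 91630 and 88366, a ratio of -0.05, and its 3 probe sets ran from -0.22 to 0.49. Apart from Espl1 the values of the group lay close to those of the bulk of genes.

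Of the 7 centromere and kinetochore genes, 6 were below 0 and 2 at -0.32 or lower, with a median of -0.22. The pair that binds microtubules within the NDC80 complex was lowest, with Ndc80 at 4292 with DMSO and 3164 with the ligands, 1.36-fold lower. Its partner Nuf2 had 9345 and 6942, 1.35-fold lower. The other subunits of the same complex, Spc24 and Spc25, had ratios of -0.22 and -0.01, and a weak second probe set of Spc25 was at -0.53. The kinetochore motor Cenpe was at -0.28, with a second probe set at -0.73, and the large kinetochore protein Cenpf at -0.17. Cenpa, the histone H3 variant that marks centromeres, was higher, 23069 and 26013, a ratio of 0.17, and its second probe set (1680 and 2346) was at 0.48. Cenpa was the only member with 2 or more probe sets above the floor and all of them above 0.

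The kinesins held the lowest member of all. Kif23 (MKLP1), the motor of the centralspindlin complex that bundles midzone microtubules for cytokinesis, had signals of 23809 with DMSO and 15431 with the ligands, 1.54-fold lower. Its second probe set (4126 and 2309) was lower still, at -0.84. Of all measured genes, 3.87% had a lower ratio than Kif23. Kif4, the chromokinesin that shortens the midzone, had 3517 and 2675, a ratio of -0.39. Kif11 (Eg5), which pushes spindle poles apart, was at -0.31, with all 3 probe sets below 0. Kif2c (MCAK), which takes microtubules apart at centromeres, was at -0.21 by its brightest probe set, but the other 3 were at 0.22 to 0.35. Kif20a (MKLP2), which brings the passenger complex to the midzone, was at -0.03. Kif22, another chromokinesin, had 20973 and 21495, a ratio of 0.04, and its other probe sets were at -0.26 and -0.12. Over the 6 kinesins the median was -0.26.

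The 3 spindle assembly and midzone genes were all below 0, with a median of -0.25. Nusap1, which bundles spindle microtubules near chromosomes, had 18835 with DMSO and 14850.2 with the ligands, a ratio of -0.34. Prc1, the crosslinker of midzone microtubules, had 14107 and 11841, a ratio of -0.25, and its second probe set was at -0.34. Tpx2, which activates Aurora A on the spindle, had 17024 and 15216, a ratio of -0.16. Its probe sets disagreed more than those of any other member, from -0.75 to 0.13, the last at a signal near the floor.

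Genes for condensin and chromosome structure were all below 0 by their brightest probe sets, and the 6 lay in a narrow range of -0.47 to -0.21, with a median of -0.28. Smc4, a core ATPase of condensin, had 34272 with DMSO against 24807 on the ligand array, 1.38-fold lower, and the 3 probe sets were at -0.47 to -0.60. Its partner Smc2 was at -0.29, with 4 of 5 probe sets below 0. The condensin I subunits Ncapd2 and Ncapg were at -0.30 (9499 and 7704) and -0.21 (12034 and 10408). Top2a, the topoisomerase that untangles sister chromatids, was at -0.21. Mki67, the proliferation marker that coats mitotic chromosomes, had 46123 and 38187, a ratio of -0.27.

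Cytokinesis genes showed both directions. Anln, anillin, which organises the contractile ring, had 28464 with DMSO and 19678 with the ligands, 1.45-fold lower and the second lowest of all members. Racgap1, the partner of KIF23 in centralspindlin, had 19846 and 16085, a ratio of -0.30, and its second probe set was at -0.48. Ect2, the exchange factor for RhoA that centralspindlin recruits, was the highest member, with 3478 and 4194, 1.21-fold higher from its single probe set. The ratio of Ect2, 0.27, is within the SD of 0.28 between probe sets of all signals.

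**Figure D3:**
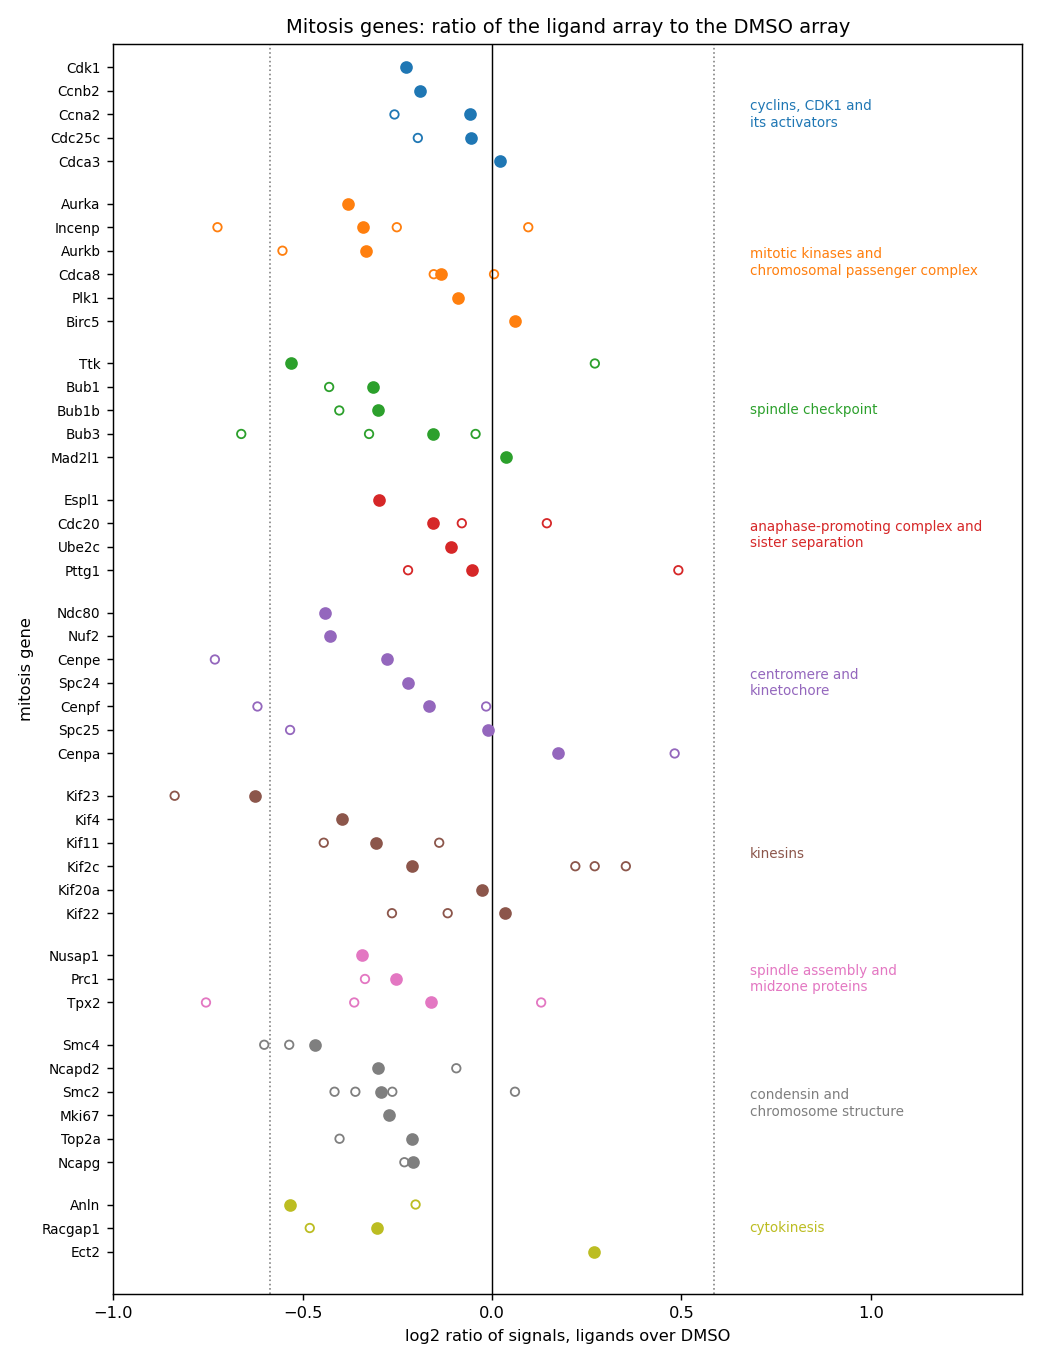
Log2 ratio of the ligand signal to the DMSO signal (horizontal) for each of 45 mitosis genes, by function; filled points are the probe set that represents the gene, open points its other probe sets that exceed the floor on the 2 arrays, and dotted lines mark 1.5-fold. Most filled points lie between -0.5 and 0, Kif23 lies beyond the left dotted line, and Ect2 and Cenpa stand furthest to the right.

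Most probe sets pointed the same way as the chosen ones. The members had 102 probe sets, 91 of them above the floor on both arrays, of which 74, or 81.3%, were below 0, against 52.8% of all such probe sets. Their median of -0.23 was close to that of the members. Of 28 members with at least 2 of these probe sets, 18 had all of them below 0, or 64.3%, against 27.2% of 4866 genes. Cenpa had all of them above 0, and the other 9 were mixed: Incenp, Cdca8, Ttk, Cdc20, Pttg1, Kif2c, Kif22, Tpx2 and Smc2. Of the 56 probe sets with both signals of at least 5000, 49 were below 0 and the ratios ran from -0.63 to 0.22. Of the 35 with a weaker signal, 25 were below 0 and they ran from -0.84 to 0.49, so the widest values were those of weak probe sets.

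Mitosis genes outside the 46 showed much the same values. Of 103 further genes listed by role, 99 were measured, 80 had a ratio below 0 and 31 one of -0.32 or lower, with a median of -0.23. Spindle and kinesin genes had a median of -0.28, with 19 of 22 below 0, from Gtse1, a microtubule-binding protein, at -0.62 to Ska2, of the kinetochore SKA complex, at 0.25. The other probe set of Ska2 was at -0.92, so its direction is not settled. Centromere, kinetochore and checkpoint genes had a median of -0.23, with 22 of 27 below 0, from Nsl1 at -0.58 to Oip5, which helps load CENP-A, at 0.29. Cohesin and condensin genes had 14 of 15 below 0 and a median of -0.29, from the condensin II subunit Ncapd3 at -0.61 to Ncaph2 of the same complex at 0.29. The 4 probe sets of Ncaph2 above the floor ran from -0.18 to 0.29. The list of the anaphase-promoting complex, mostly core subunits, lay nearer the bulk of genes, with 10 of 15 below 0 and a median of -0.05, from the inhibitor Fbxo5 (EMI1) at -0.37 to Anapc7 at 0.33.

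Regulators of mitotic entry and exit had 15 of 20 below 0 and a median of -0.22, from the MuvB subunit Lin54, which binds the CHR, at -0.63 to the MuvB subunit Lin37 at 0.30. The second probe set of Lin54 was at 0.03. Foxm1 and Mybl2 (B-MYB), quoted for their role at the CHR after their values were seen, had ratios of -0.63 and -0.25. For Foxm1 the signals were 4563 and 2954, and its 3 probe sets ran from -0.63 to -0.24, while another probe set of Mybl2 was at 0.30.

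Genes of the earlier cell cycle phases gave values on both sides of those of the mitosis genes. All 39 measured DNA replication genes were below 0, with a median of -0.32, from Gins3, a subunit of the replicative helicase, at -0.63 to the clamp loader subunit Rfc3 at -0.02, and 19 were at -0.32 or lower. Of 20 measured G1 cyclins, CDKs and CDK inhibitors with their E2F and RB partners, 14 were below 0, with a median of -0.20. Their range was wider, from the repressor E2f8 at -0.71 to the CDK inhibitor Cdkn1b (p27) at 0.88 (3406 and 6285), whose second probe set was at 0.02. No difference between these lists and the mitosis genes could be tested. Of 9 measured reference genes, 3 were below 0 and the median of the 9 was 0.04, from Sdha at -0.05 to Ywhaz at 0.71. The 7 probe sets of Ywhaz above the floor ran from -1.14 to 0.80.

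**Figure D4:**
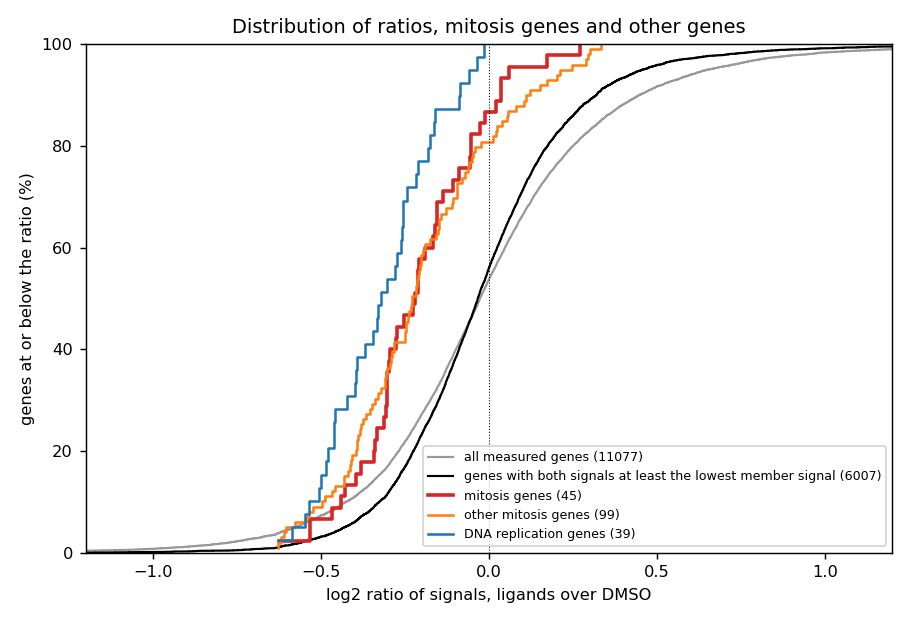
Share of genes (vertical, percent) at or below each log2 ratio of ligand to DMSO signal (horizontal) for all measured genes, genes with both signals at least the lowest member signal, the 45 mitosis genes, 99 other mitosis genes and 39 DNA replication genes. The curves of the cell cycle lists lie to the left of the others near the middle and meet them at the lower end, where no mitosis gene is below -0.63.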

How the data were processed

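The deposited values are linear MAS5 signal intensities, 1 for each probe set, made by the authors with MAS5 per the submitters' processing notes, of a version not given in the sources used here. RNA was column-purified and biotin-labelled, per the labels' protocols. Both arrays of 45101 probe sets had a 2% trimmed mean of 2500, so values were used as deposited, and differences in the amount of RNA per cell are not visible. Detection calls were not used. Of the probe sets, 34945 had 1 gene symbol in the platform annotation, updated through the gene identifier to GRCm38.p6, 932 had several, 9160 had none and 64 were controls; only the first were used for genes. Probe sets named _s_at or _x_at may cross-detect related transcripts; they represent 10 members, among them Aurkb, Incenp, Bub3 and Pttg1.

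Signals below the floor were set to it, and log2 ratios taken as ligands over DMSO, with Python 3.11.15, numpy 2.4.6 and pandas 2.3.3. The steps were tested on simulated data. With 1 array per group no p-value was computed, and lists were described by counts and medians beside all measured genes. All members are named. Both signals are given for the 2 lowest, the highest and the brightest of each group, and for some others. Of each other list, apart from markers of other cells, the genes of lowest and highest ratio are named, most by their ratio alone. The members and lists were chosen with earlier results of these data known, in which cell cycle genes were already seen to be lower, so that direction is not independent support. Alternatives were other floors, log2(signal + 32), quantile normalization, centring, the mean over probe sets, leaving out _s_at and _x_at probe sets, genes above the floor on both arrays, and other thresholds. The counts over single probe sets and those beyond 2 SDs of bright probe sets were added after seeing the data. So was the background of genes with both signals at or above the lowest member signal.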

Additional observations from a re-analysis of the deposited data

How the results depend on the processing

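Under 9 alternatives in floor, scaling, probe set choice and genes counted, 1 of them (a floor at the median of probe sets with 1 symbol) chosen after seeing the data, between 37 and 39 mitosis genes had a ratio below 0, against 50 to 55.3% of all genes, and their median lay between -0.27 and -0.19. The value of -0.27 came from averaging probe sets. Centring on the median ratio gave 37 of 45 below 0. Without _s_at and _x_at probe sets the median of the cyclin and CDK1 group was -0.19 and that of the mitotic kinases and passenger complex -0.090, the value nearest 0 of the 9 groups. The latter is over 5 members, since Aurkb has only such probe sets and dropped out. With probe sets averaged, the group nearest 0 was that of the anaphase-promoting complex, at -0.069, against -0.16 for the cyclins and CDK1. At a log2 ratio of -0.32 or lower there were 11 members and at 2-fold lower 0, against 1 at 1.5-fold. For 39 members the sign of the ratio was kept under all 9, except that Aurkb had no value without _s_at and _x_at probe sets. It turned for Spc25 (0.015) and Kif20a (0.0012) when centred, for Pttg1 (0.073), Kif2c (0.16) and Kif22 (-0.12) when probe sets were averaged, and for Cdca8 (0.0053) and Kif22 (-0.12) without _s_at and _x_at probe sets. The number of arrays limits the precision, and leaving out an array was not possible. No paired analysis was possible because each condition had 1 array.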
